A study of Mus musculus with 24 samples.

Results

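Il4, Il5, Il13 and Rad50 are the genes of the TH2 cytokine locus, and their RNA levels were followed in naive mouse CD4 T cells and in cells cultured towards the T helper type 2 (TH2) fate. Each gene was read from the probe set whose only gene symbol was that gene. Each of the 4 had 1 such probe set (10385832 for Il4, 10376054 for Il5, 10385837 for Il13 and 10385842 for Rad50), so 4 of the 35556 probe sets and 4 of the 19938 genes tested are described. The donors were wild-type (WT) 129SvEv mice or mice labelled Batf1/3DKO (DKO), which lack Batf and Batf3, members of the AP-1 family of transcription factors. In each genotype there were 4 states with 3 arrays each: naive cells at day 0, cells at day 2 of TH2 culture, and cells at day 4 of TH2 culture with 2.2 ng/ml or with 10 ng/ml of anti-CD3e. Anti-CD3e is an antibody that triggers the T cell receptor. It was given in solution, and the co-stimulating anti-CD28 was cross-linked on the plate by anti-hamster IgG. For day 2 the anti-CD3e concentration is not labelled. The labels also give no age or sex of the mice, and no statement of whether the 3 arrays of a group came from separate animals or cultures. The p-values below therefore measure the spread between these arrays, which may be technical. The knockout was not labelled as restricted to T cells. The study's title asks how graded T cell receptor signals are read by DNA elements that bind BATF with IRF4.

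Il4, Il13 and Il5 encode the secreted cytokines that define TH2 cells. IL-4 drives the TH2 fate itself and the switch of B cells to IgE, IL-13 acts on epithelium and mucus secretion, and IL-5 is the growth and survival factor of eosinophils. Rad50 lies between Il13 and Il5. It encodes a subunit of the MRE11-RAD50-NBN complex that senses broken DNA, is transcribed in most cells, and carries in its body the control region that acts on the neighbouring cytokine genes. GATA3, STAT6, NFAT and AP-1 factors are known to act on the locus. BATF pairs with JUN proteins and binds, together with IRF4, composite elements known as AICE.

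The sequence just before the annotated start of each cytokine gene is shown because all 3 were called in the genotype and dose comparisons at 10 ng/ml, and because the factors named above read short motifs. RefSeq windows (GRCm38.p6, the C57BL/6J reference, not the 129SvEv strain) were matched by symbol for 3 of the 4 members, Il4, Il13 and Il5. Each holds the 250 bases upstream of the start, 5' to 3' on the gene's strand, and capitals mark matches on either strand to GGAAA, the core bound by NFAT, or to a GATA motif spelled out below. The Il4 window is chr11:53618666-53618915 on the minus strand, the Il13 window is chr11:53634703-53634952 on the minus strand, and the Il5 window is chr11:53720544-53720793 on the plus strand.
Il4: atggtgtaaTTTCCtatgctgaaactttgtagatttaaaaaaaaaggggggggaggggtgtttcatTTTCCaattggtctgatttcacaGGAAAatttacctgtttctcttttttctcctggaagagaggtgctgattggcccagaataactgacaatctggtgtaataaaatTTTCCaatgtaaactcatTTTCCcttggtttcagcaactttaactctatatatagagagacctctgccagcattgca
Il13: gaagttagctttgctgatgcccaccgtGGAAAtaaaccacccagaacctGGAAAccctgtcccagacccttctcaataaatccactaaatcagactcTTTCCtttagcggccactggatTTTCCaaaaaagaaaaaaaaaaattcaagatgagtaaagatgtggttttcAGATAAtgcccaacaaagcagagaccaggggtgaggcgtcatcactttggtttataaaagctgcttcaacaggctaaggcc
Il5: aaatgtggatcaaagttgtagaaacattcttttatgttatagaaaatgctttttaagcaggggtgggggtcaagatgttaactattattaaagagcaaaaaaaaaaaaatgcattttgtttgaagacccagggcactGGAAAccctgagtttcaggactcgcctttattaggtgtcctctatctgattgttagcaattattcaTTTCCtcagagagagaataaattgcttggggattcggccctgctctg
GGAAA occurred 5 times in the Il4 window, 4 times in the Il13 window and 2 times in the Il5 window, counting both strands. Of 32851 RefSeq windows of 250 bases, 55.6% held it at least 1 time, 21.4% at least 2 times, 1.59% at least 4 times and 0.39% at least 5 times. The GATA motif AGATAA occurred 1 time, in the Il13 window from 81 to 76 bases before the start, and in 9.99% of all windows. The AP-1 motif TGANTCA (6.75% of all windows) and the composite of an AP-1 motif with an IRF core (0.198% of all windows) were not found in these 3 windows. Il4 has another annotated start further downstream, whose window (chr11:53617339-53617588) held none of the searched motifs. These matches describe letters in a reference sequence and are not binding sites.

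Several facts of the whole series bear on the values. Intensities ran from 1.95 to 14644.9, array medians from 26.4 to 31.6, and arrays of 1 group correlated at 0.983 to 0.992 across genes. An intensity of 30.2, the median over probe sets of their mean, serves below as a guide, since dimmer readings may be background, which compresses folds. Batf, the targeted gene, read 26.7 to 52.1 on the 12 DKO arrays and 114 to 1696 on the 12 WT arrays. Batf3 separated the genotypes at 10 ng/ml, where it read 110 to 173 in WT and 24.7 to 33.3 in DKO, and lay near the guide elsewhere. Which part of either gene its probe set reads is not given in the sources used here. Markers of T cells, Cd3e, Cd3d, Cd3g, Cd4 and Cd28, were above the guide in all 8 groups. A change in the share of cells that carry a transcript and a change in RNA per cell cannot be told apart in these bulk samples. The third array of WT at 2.2 ng/ml stood apart from its group in several genes described here, and results that rest on it are given with and without it.

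Il4 was low in naive cells, rose by day 2 in WT and was highest in WT at 10 ng/ml, and no DKO array reached the WT levels of day 2 or 10 ng/ml. In WT it read 18.7, 20.1 and 24.6 at day 0, and 237, 219 and 230.3 at day 2. At day 4 it read 22.2, 18.1 and 99.9 with 2.2 ng/ml, and 264, 342 and 386 with 10 ng/ml. Day 2 and 10 ng/ml were thus clear of day 0 on every array, while 2 of the 3 arrays at 2.2 ng/ml were back in the range of naive cells and the third was not. In DKO it read 17.7, 20.2 and 16.4 at day 0, 25.6, 24.8 and 19.6 at day 2, 20.7, 16.1 and 16.4 at 2.2 ng/ml, and 18.8, 23.6 and 21.6 at 10 ng/ml. All 12 DKO values lay under the guide. The order of the 8 group means was DKO 2.2 ng/ml, DKO day 0, WT day 0, DKO 10 ng/ml, DKO day 2, WT 2.2 ng/ml, WT day 2 and WT 10 ng/ml. Each neighbouring pair up to WT 2.2 ng/ml overlapped between arrays, and the last 2 steps did not.

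Il13 had the widest range of the locus genes on the log2 scale and reached its highest level in WT at 10 ng/ml. In WT it read 47.4, 42.4 and 54.7 at day 0, and 258, 233 and 336 at day 2. At day 4 it read 48.6, 41.5 and 168 with 2.2 ng/ml, and 1659.9, 1614 and 3052 with 10 ng/ml. The arrays at 10 ng/ml lay far above those of day 2, and at 2.2 ng/ml again only the third array lay above the naive range. In DKO it read 41.3, 47.7 and 47.2 at day 0, 39.7, 78.5 and 50.9 at day 2, 47.7, 44.7 and 40.4 at 2.2 ng/ml, and 44.6, 61.7 and 62.9 at 10 ng/ml. No DKO array came near the WT arrays of day 2 or 10 ng/ml. The 8 group means stood in the same order as for Il4, and with the same steps free of overlap.

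Il5 differed from the other cytokines in that only 1 group stood out. In WT it read 10.3, 7.76 and 12.1 at day 0, 9.76, 9.94 and 9.32 at day 2, and 8.74, 8.43 and 7.51 at 2.2 ng/ml. At 10 ng/ml it read 30.2, 28.9 and 75.6, so arrays 1 and 2 lay at or just under the guide and only array 3 was clear of it. The other 7 groups lay between 7.51 and 12.6, under the guide, and neighbours in the order of their means (WT 2.2 ng/ml, DKO 10 ng/ml, DKO day 2, DKO 2.2 ng/ml, WT day 2, WT day 0, DKO day 0) all overlapped. In DKO it read 12.6, 9.94 and 8.91 at day 0, 9.42, 8.84 and 9.27 at day 2, 7.90, 10.5 and 10.3 at 2.2 ng/ml, and 8.42, 7.86 and 9.54 at 10 ng/ml. Array 3 of WT at 10 ng/ml held the highest value of that group for each of the 4 genes.

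Rad50 was well above the guide in every group and moved over a narrower range. In WT it read 215, 165 and 133 at day 0, and 414, 399 and 429 at day 2. At day 4 it read 246, 214 and 293 with 2.2 ng/ml, and 521, 473 and 541 with 10 ng/ml. In DKO it read 221, 197 and 209 at day 0, 332, 334 and 346 at day 2, 274, 333 and 287 at 2.2 ng/ml, and 276, 289.6 and 281 at 10 ng/ml. WT cells thus had the lowest and the highest group means, and the DKO means lay between them. The order of means was WT day 0, DKO day 0, WT 2.2 ng/ml, DKO 10 ng/ml, DKO 2.2 ng/ml, DKO day 2, WT day 2 and WT 10 ng/ml, and only the last 2 steps were free of overlap between arrays.

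**Figure D1:**
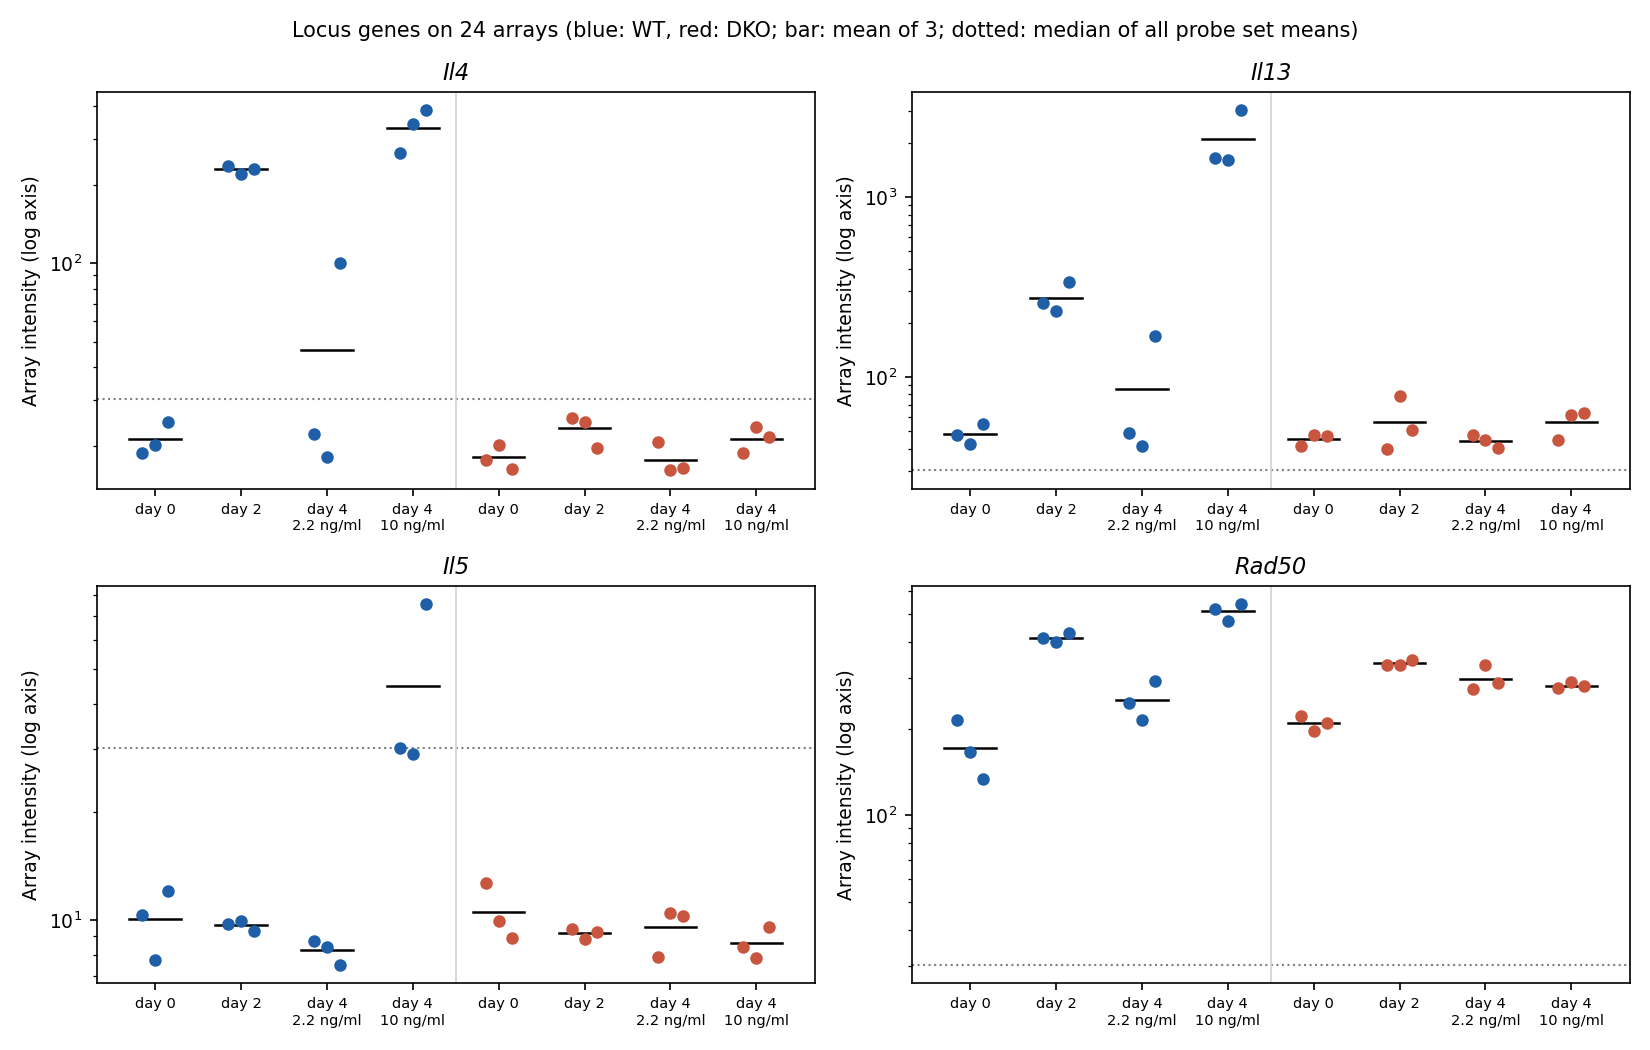
Intensity (log axis, a separate scale for each gene) of Il4, Il13, Il5 and Rad50 on each of the 24 arrays, with WT in blue, DKO in red, a bar at the mean of the 3 arrays (of the linear intensities) and a dotted line at the median of all probe set means (30.2). The 3 cytokines were highest in WT at 10 ng/ml, where Il13 reached 3052, while Rad50 lay far above the dotted line on every array of both genotypes.

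In WT all 4 locus genes were called higher than at day 0 with 10 ng/ml, 3 of them at day 2, and Rad50 alone with 2.2 ng/ml. At day 2 against day 0, Il4 was 10.9-fold higher (95% confidence interval 6.56 to 18.04; limma with Benjamini-Hochberg adjustment over all genes, adjusted p = 1.97e-08), Il13 was 5.69-fold higher (3.48 to 9.30; adjusted p = 1.73e-06) and Rad50 was 2.47-fold higher (2.02 to 3.01; adjusted p = 3.54e-08). Il5 stood at 0.978-fold (0.696 to 1.38; adjusted p = 0.928). So 3 of the 4 genes were called, in a comparison that called 40.2% of all genes. At 10 ng/ml against day 0 all 4 rose, where 36.4% of all genes were called. Il13 was 42.1-fold higher (25.7 to 68.8; adjusted p = 4.37e-12), Il4 15.5-fold (9.37 to 25.8; adjusted p = 2.01e-09), Il5 4.09-fold (2.91 to 5.75; adjusted p = 1.86e-07) and Rad50 3.05-fold (2.50 to 3.71; adjusted p = 1.05e-09). With an offset of 16 added before log2, which shrinks the folds of dim genes, Il4 was 6.60-fold higher at day 2 and 9.24-fold at 10 ng/ml, and Il5 2.21-fold at 10 ng/ml, all still called. Without WT 10 ng/ml array 3, Il5 was 2.99-fold higher there (adjusted p = 7.57e-08). At 2.2 ng/ml against day 0 Rad50 alone was called (1.48-fold, 1.22 to 1.81, adjusted p = 0.00248), with 29.2% of all genes called. The Rad50 arrays of those groups overlapped, and its call was lost with only these groups in the fit (adjusted p = 0.0609) and with a further cyclic loess normalization (adjusted p = 0.0549). Il4 was at 1.63-fold (0.982 to 2.70; adjusted p = 0.149) and Il13 at 1.46-fold (0.890 to 2.38; adjusted p = 0.267) with all 3 arrays at 2.2 ng/ml. Without the third array these values were 0.953-fold and 0.938-fold, and without the second array Il4 was 2.24-fold higher (adjusted p = 0.0109).

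Renormalizing the deposited values by cyclic loess or quantiles moved the median of all genes by 0.136 and 0.142 (log2) at day 2, by 0.0964 and 0.123 at 2.2 ng/ml and by 0.128 and 0.119 at 10 ng/ml. Relative to the median of all genes, Il4 was higher by 3.55, Il13 by 2.61 and Rad50 by 1.41 at day 2, Rad50 by 0.63 at 2.2 ng/ml, and Il13 by 5.49, Il4 by 4.06, Il5 by 2.13 and Rad50 by 1.71 at 10 ng/ml.

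In DKO cells the same steps called no cytokine of the locus. Against DKO day 0, Il4 was at 1.29-fold at day 2, 0.978-fold at 2.2 ng/ml and 1.18-fold at 10 ng/ml (adjusted p from 0.530 to 0.974). Il13 was at 1.195, 0.974 and 1.23-fold (adjusted p from 0.576 to 0.968), and Il5 at 0.884, 0.912 and 0.826-fold (adjusted p from 0.436 to 0.791). The widest of these intervals still allowed up to a 2.14-fold rise of Il4 at day 2. Rad50 was called in all 3, at 1.62-fold (1.33 to 1.97; adjusted p = 0.000316), 1.43-fold (1.17 to 1.74; adjusted p = 0.00845) and 1.35-fold (1.11 to 1.65; adjusted p = 0.0171). These single calls came where 28.6%, 19.9% and 30.7% of all genes were called. The Rad50 call at 2.2 ng/ml was lost without DKO 2.2 ng/ml array 2 (adjusted p = 0.0586). That at 10 ng/ml was lost without DKO day 0 array 2 (adjusted p = 0.0653) or DKO 10 ng/ml array 2 (adjusted p = 0.0547), and with cyclic loess (adjusted p = 0.0816). The same normalizations moved the median of all genes by 0.0887 and 0.118 at 10 ng/ml, where Rad50 was higher than that median by 0.49.

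**Figure D2:**
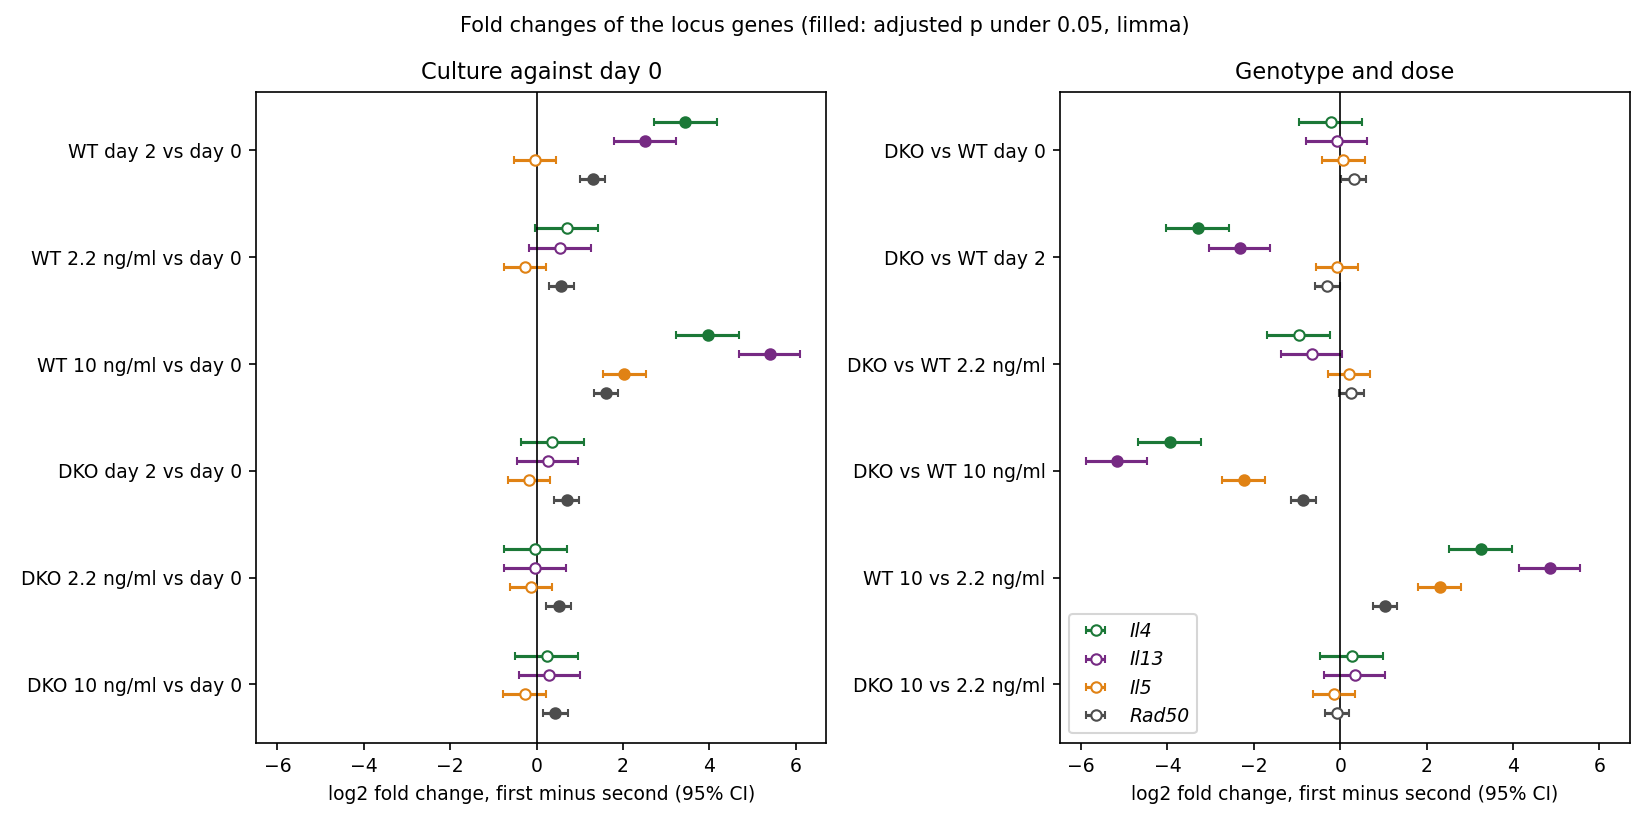
Log2 fold change, first group minus second, of the 4 genes with 95% confidence intervals from limma: cultured cells against day 0 in each genotype on the left, and DKO against WT in the 4 states with the dose step in each genotype on the right; filled points have an adjusted p under 0.05. All 4 genes have filled points below 0 for DKO against WT at 10 ng/ml, filled points above 0 for the dose step in WT, and open points for the dose step in DKO.

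The direct comparison of genotypes asked in which state the locus genes differed without Batf and Batf3. In naive cells none of the 4 was called, with 0.0652% of all genes called: DKO over WT was 0.857 for Il4, 0.946 for Il13, 1.05 for Il5 and 1.24 for Rad50 (adjusted p from 0.662 to 0.989). At day 2 Il4 was 9.86-fold lower in DKO (5.95 to 16.3; adjusted p = 2.58e-06) and Il13 5.03-fold lower (3.08 to 8.22; adjusted p = 0.000166). These 2 calls fell in a comparison that called 2.71% of all genes, and Il4 had the 4th and Il13 the 10th lowest fold of all genes tested. Il5, under the guide in both genotypes, stood at 0.949 (adjusted p = 0.912). Rad50 differed by -0.30 ± 0.14 (SE) on the log2 scale and was not called (adjusted p = 0.290).

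At 10 ng/ml all 4 genes were lower in DKO, where 12.8% of all genes were called. Il13 was 36.2-fold lower (22.1 to 59.1; adjusted p = 5.52e-11), Il4 15.4-fold (9.27 to 25.5; adjusted p = 1.07e-08), Il5 4.71-fold (3.35 to 6.62; adjusted p = 1.81e-07) and Rad50 1.81-fold (1.49 to 2.21; adjusted p = 7.84e-05). By fold, Il13 was the 10th, Il4 the 22nd and Il5 the 94th lowest gene of the 19938. Without WT array 3, the highest of its group, the differences were 29.4-fold for Il13, 14.1-fold for Il4, 3.44-fold for Il5 and 1.76-fold for Rad50, and all 4 calls remained. With the offset of 16, Il4 was 9.19-fold lower here and 6.23-fold lower at day 2, and Il5 2.34-fold lower here, all still called. At 2.2 ng/ml none was called, with 3.71% of all genes called. Il4 differed there by -0.96 ± 0.35 on the log2 scale (adjusted p = 0.173) and Il13 by -0.66 ± 0.34 (adjusted p = 0.448). These values rest on the third WT array: without it they were -0.18 and -0.03, and without the second WT array Il4 was called (-1.42, adjusted p = 0.0153). Rad50 was at 0.26 ± 0.14 (adjusted p = 0.477) and Il5 at 0.21 ± 0.24 (adjusted p = 0.852).

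The dose of anti-CD3e at day 4 separated the locus genes strongly in WT. From 2.2 to 10 ng/ml, Il13 rose 28.9-fold (17.7 to 47.2; adjusted p = 2.31e-10), Il4 9.54-fold (5.75 to 15.8; adjusted p = 2.68e-07), Il5 4.92-fold (3.501 to 6.92; adjusted p = 1.29e-07) and Rad50 2.05-fold (1.68 to 2.50; adjusted p = 5.86e-06). All 4 were called, where 15.2% of all genes were called. Their arrays did not overlap between the doses, but the share of all genes free of overlap was not counted in any comparison. Il13 had the 4th, Il4 the 33rd, Il5 the 88th and Rad50 the 495th highest fold. Without the third array at 2.2 ng/ml, Il13 rose 44.9-fold and Il4 16.3-fold, and with the offset of 16 Il5 rose 2.37-fold (adjusted p = 2.21e-05). Without WT 10 ng/ml array 3, Il5 rose 3.60-fold (adjusted p = 3.60e-08). In DKO none of the 4 was called, and 8.15% of all genes were: Il4 stood at 1.205-fold (0.727 to 2.00), Il13 at 1.26-fold (0.772 to 2.06), Il5 at 0.906-fold (0.644 to 1.27) and Rad50 at 0.9495-fold (0.779 to 1.16), with adjusted p from 0.717 to 0.870.

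The response itself was compared between genotypes as a difference of differences, DKO minus WT. For 10 against 2.2 ng/ml it was -4.52 ± 0.49 (log2, SE) for Il13 (adjusted p = 9.74e-07), -2.98 ± 0.50 for Il4 (adjusted p = 0.000307), -2.44 ± 0.34 for Il5 (adjusted p = 2.78e-05) and -1.11 ± 0.20 for Rad50 (adjusted p = 0.000541). All 4 genes were called, against 6.94% of all genes. Without the third WT array at 2.2 ng/ml the Il13 value was -5.15 and the Il4 value -3.76, and with the offset of 16 the Il5 value was -1.30 (adjusted p = 0.00137). For day 2 against day 0 it was -3.08 ± 0.50 for Il4 (adjusted p = 0.00191) and -2.25 ± 0.49 for Il13 (adjusted p = 0.0201), and these were the 2 members called among 1.05% of all genes. The Il13 call was lost without WT day 2 array 3 (adjusted p = 0.0562), DKO day 0 array 2 (adjusted p = 0.0513) or DKO day 2 array 3 (adjusted p = 0.0513). Rad50 stood at -0.61 ± 0.20 (adjusted p = 0.142), and without WT day 0 array 1 it was called (-0.79, adjusted p = 0.0356). Il5 stood at -0.15 ± 0.34 (adjusted p = 0.870).

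Between day 2 and day 4 the WT cultures parted by dose. At 2.2 ng/ml Il4 was 6.68-fold lower than at day 2 (4.03 to 11.1; adjusted p = 1.24e-05), Il13 3.91-fold lower (2.39 to 6.39; adjusted p = 0.000411) and Rad50 1.66-fold lower (1.36 to 2.03; adjusted p = 0.00091). Those 3 of 4 genes were called where 11.2% of all genes were, and Il4 had the 3rd and Il13 the 9th lowest fold. Without the third array at 2.2 ng/ml the falls were 11.4-fold for Il4 and 6.07-fold for Il13. At 10 ng/ml Il13 was 7.39-fold higher than at day 2 (4.52 to 12.1; adjusted p = 7.29e-07) and Il5 4.18-fold higher (2.97 to 5.88; adjusted p = 4.72e-07), and these 2 were called among 23.2% of all genes. With the offset of 16 that Il5 rise was 2.24-fold, and without WT 10 ng/ml array 3 it was 3.05-fold. Il4 stood at 1.43-fold (0.861 to 2.37; adjusted p = 0.366) and Rad50 at 1.24-fold (1.01 to 1.51; adjusted p = 0.128), and neither was called. In DKO none of the 4 was called in either step, which called 6.17% of all genes at 2.2 ng/ml and 5.18% at 10 ng/ml (adjusted p from 0.377 to 0.975). Since day 2 has no labelled dose, these steps mix time with an unstated change of dose.

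The ratio of Il13 to Il4 was read in the 2 WT states in which both were high, after their folds had been seen, and is a description. The log2 ratio of Il13 to Il4 within an array was 0.13, 0.09 and 0.54 at day 2 and 2.65, 2.24 and 2.98 at 10 ng/ml. It was higher at 10 ng/ml by 2.37 on average, without overlap between arrays.

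The genes that flank the locus were read in RefSeq order (GRCm38.p6), with the 8 nearest measured genes on each side: Aff4, Leap2, Uqcrq, Gdf9, Shroom1, Sowaha, Septin8 and Kif3a on the side of Il4, and Irf1, Slc22a5, Slc22a21, Slc22a4, Pdlim4, P4ha2, Csf2 and Il3 on the side of Il5. In DKO against WT at 10 ng/ml 2 of the 16 were higher and 6 lower, where 12.8% of all genes were called (median -0.09 on the log2 scale, beside 0.03 over all genes). At day 2 1 was higher and 3 lower, beside 2.71% of all genes (median -0.32, beside 0.04 over all genes), and at 2.2 ng/ml 0 were higher and 2 lower, beside 3.71%. From 2.2 to 10 ng/ml in WT 4 rose and 1 fell, beside 15.2% of all genes (median -0.03, beside -0.04 over all genes). In DKO 1 rose and 1 fell, beside 8.15%, so that in DKO the share of flanking genes called was near that of all genes. All 4 members were called in both the genotype comparison at 10 ng/ml and the dose comparison in WT, and the flanking genes were called in part and in both directions.

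Kif3a, which encodes a motor subunit of kinesin-2 and lies next to Il4, had the profile closest to Il4 among the flanking genes by the measure of likeness given further on. In WT it read 21.8 ± 5.04 (SD, n = 3) at day 0 and 104 ± 13.2 at day 2, then 40.8 ± 20.7 with the low dose and 138 ± 7.18 with the high dose. In DKO it read 23.9 ± 5.70, 44.9 ± 9.59, 28.6 ± 7.65 and 45.4 ± 2.24 in the same order. It was 3.05-fold lower in DKO at 10 ng/ml (adjusted p = 5.25e-05) and 2.33-fold lower at day 2 (adjusted p = 0.00641, but 0.0552 without DKO day 2 array 3), and rose 3.67-fold with dose in WT (2.56 to 5.26; adjusted p = 6.69e-06). Its dose response differed between genotypes by -1.18 ± 0.36 on the log2 scale (adjusted p = 0.0456), a call lost under 15 of 22 alternatives (adjusted p from 0.0517 to 0.140), the replicate number as a block among them (0.0583). These included each array of WT and of DKO at 10 ng/ml left out in turn. Like Il4, it was higher on the third WT array at 2.2 ng/ml, with 64.5 against 30.9 and 26.9.

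Of the other flanking genes, P4ha2 (a subunit of the collagen-modifying prolyl hydroxylase) rose 4.93-fold with dose in WT (adjusted p = 3.81e-08) and was 3.42-fold lower in DKO at 10 ng/ml (adjusted p = 2.06e-06). Pdlim4 (a PDZ and LIM domain protein of the cytoskeleton) went the other way: it fell 3.57-fold with dose in WT (adjusted p = 7.83e-07) and was 2.81-fold higher in DKO at 10 ng/ml (adjusted p = 1.54e-05). Septin8 rose with dose in WT by 0.53 ± 0.16 on the log2 scale (adjusted p = 0.0230, but 0.159 without WT 2.2 ng/ml array 2, 0.166 without WT 10 ng/ml array 1 and 0.0941 with only these groups in the fit). It was lower in DKO at 10 ng/ml (-0.61 ± 0.16, adjusted p = 0.0105, but 0.0939 without WT array 1 and 0.0776 without DKO array 1). Slc22a21, under the guide in every group, and Irf1 were the other flanking genes called lower in DKO at 10 ng/ml (-0.73 ± 0.18, adjusted p = 0.00682, and -0.48 ± 0.16, adjusted p = 0.0480). The Slc22a21 call was lost without WT array 2 (adjusted p = 0.0676) or DKO array 3 (adjusted p = 0.0653), and the Irf1 call under 11 of 16 alternatives (adjusted p from 0.0505 to 0.253). For Irf1 these were WT array 1 or 2 or any DKO array left out, every probe set or their mean, quantile normalization, the offset of 16, only these groups in the fit, and the robust fit with a trend. Aff4, a scaffold of the super elongation complex, was lower in DKO at day 2 (-1.09 ± 0.12, adjusted p = 6.19e-06), at 2.2 ng/ml (-1.03 ± 0.12, adjusted p = 5.26e-06) and at 10 ng/ml (-0.78 ± 0.12, adjusted p = 7.17e-05), with no call for dose. Csf2 and Il3 are cytokine genes of the same chromosome region. Csf2 was higher in DKO at 10 ng/ml by 1.04 ± 0.17 (adjusted p = 9.12e-05) at levels under the guide, and Il3 was lower in DKO at 2.2 ng/ml (-2.79 ± 0.69, adjusted p = 0.0202) with wide spread in WT (51.0 ± 33.6). That Il3 call was lost without WT 2.2 ng/ml array 3 (-2.29, adjusted p = 0.141), without DKO 2.2 ng/ml array 1 (0.0704) or array 3 (0.0743), with the robust fit with a trend (0.0700) and with the offset of 16 (-1.46, 0.160).

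**Figure D3:**
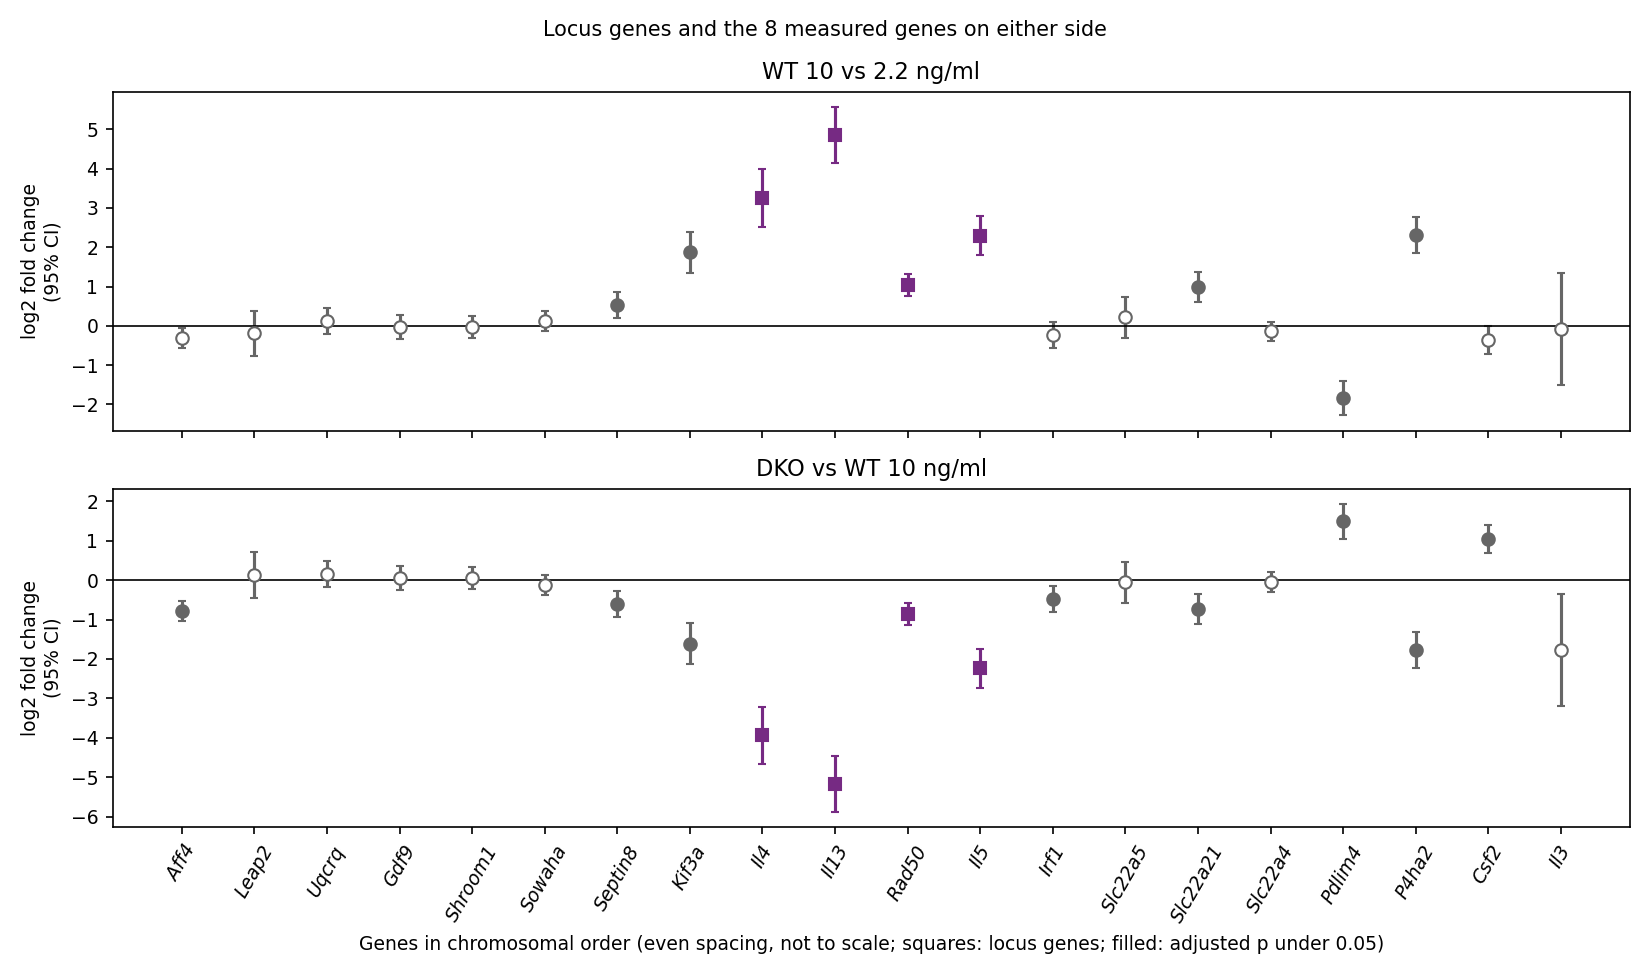
Log2 fold change with 95% confidence interval from limma of the 4 locus genes (squares) and the 16 flanking genes (circles) in chromosomal order with even spacing, for 10 against 2.2 ng/ml in WT above and for DKO against WT at 10 ng/ml below; filled points have an adjusted p under 0.05. Il13 has the lowest point for DKO against WT, at -5.18, and Kif3a and P4ha2 share the direction of the locus genes in both panels.

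Likeness of profile was measured as Pearson's r over the 8 group means of log2 intensity, among the 1234 genes whose means span at least 2 log2 units. The points share arrays and normalization, so r is a description. For Il4 the closest genes were Nedd4 (0.960), Il24 (0.953), Armcx3 (0.948), Phlda3 (0.943) and Kif3a (0.932), the last being the flanking gene above. Nedd4 encodes a ubiquitin ligase and Il24 a cytokine of the IL-10 family. For Il13 they were Ube2d2b (0.989), Tec (0.986), Il24 (0.983), Crem (0.982) and Nedd4 (0.969), of which Tec is a kinase of T cell receptor signalling and Crem a cAMP-responsive transcription factor. For Il5 they were Hamp (0.993), Stfa2 (0.990), Fam183b (0.988), Ahr (0.984) and Gipr (0.984). Ahr, the aryl hydrocarbon receptor, shows what this group has in common: it read 270 ± 52.2 in WT at 10 ng/ml and 21.3 to 29.2 on average in the other 7 groups. Between members r was 0.945 for Il4 with Il13, 0.887 for Il13 with Il5, 0.697 for Il4 with Il5, 0.791 for Rad50 with Il4 and with Il13, and 0.598 for Rad50 with Il5.

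**Figure D4:**
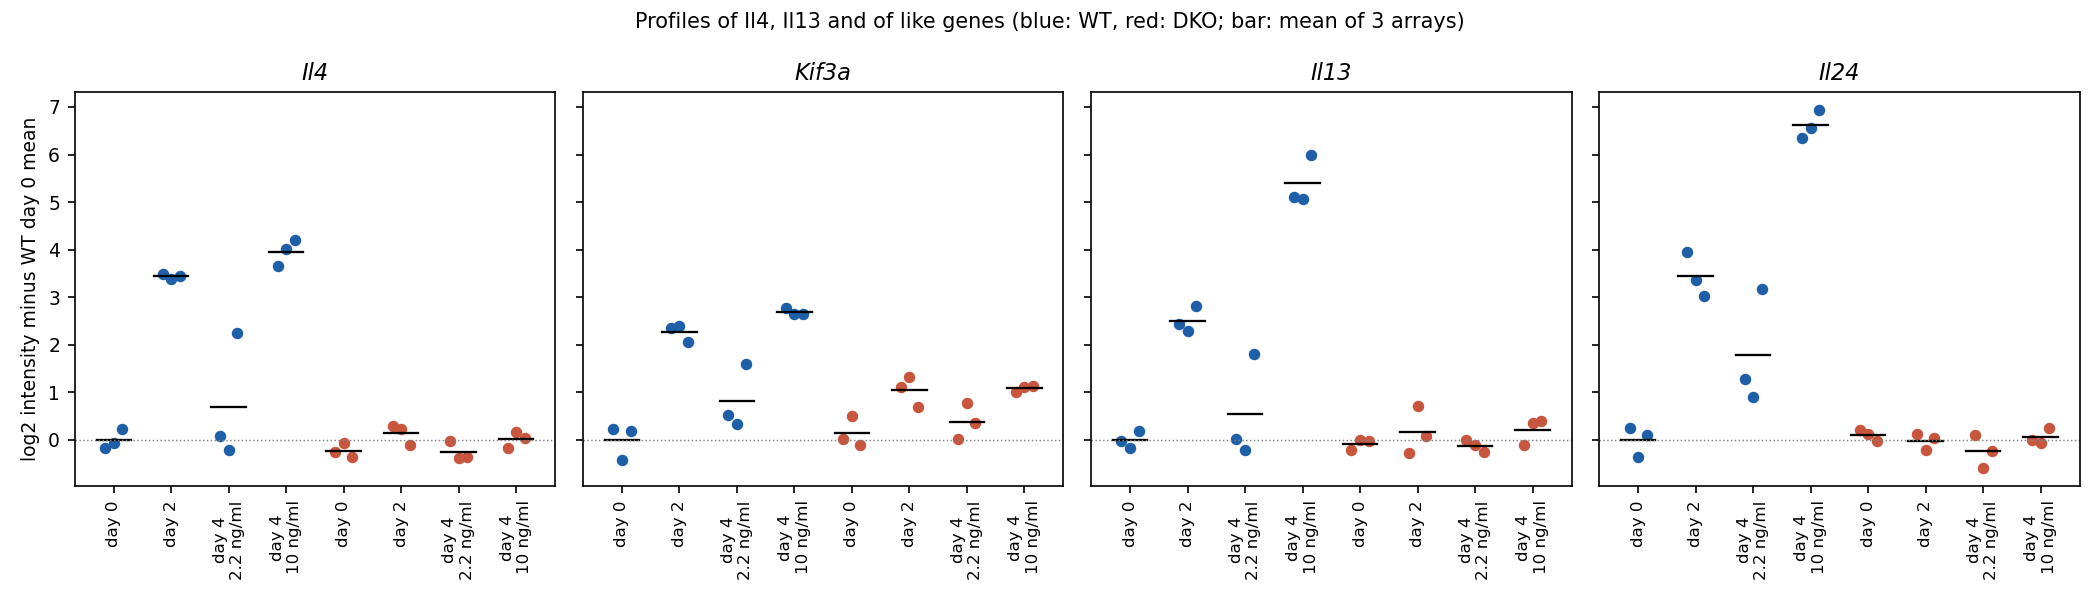
Log2 intensity of Il4, Kif3a, Il13 and Il24 on each of the 24 arrays, each minus its own WT day 0 mean, with WT in blue, DKO in red and a bar at the mean of the 3 arrays. All 4 genes lie above their day 0 values on every WT array at day 2 and at 10 ng/ml, and in DKO Il4, Il13 and Il24 lie near 0 while the means of Kif3a are above it in the 3 cultured groups.

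Among 34 measured of 35 listed factors known to act on the locus or on helper T cell fate, 5 were higher and 15 lower in DKO at 10 ng/ml, 1 and 7 at day 2, and 2 and 11 at 2.2 ng/ml, where 12.8%, 2.71% and 3.71% of all genes were called. With dose 10 rose and 10 fell in WT, and 8 rose and 7 fell in DKO, beside 15.2% and 8.15% of all genes. The list holds Batf and Batf3 themselves. Pparg, a nuclear receptor used by TH2 cells, also parted by genotype: in WT it read 15.2 ± 1.82 at day 0 and 72.9 ± 4.02 at day 2, then 59.0 ± 10.98 with the low dose and 210.2 ± 14.2 with the high dose, and in DKO it stayed at 15.3 to 21.5 on average. Its dose response differed between genotypes by -1.50 ± 0.20 (adjusted p = 2.47e-05). Bhlhe40, a basic helix-loop-helix factor that supports cytokine production, was lower in DKO in all 3 cultured states (-2.30 ± 0.25, -2.63 ± 0.25 and -1.20 ± 0.25, adjusted p at most 0.00163). It rose with dose in WT, from 261 ± 113 to 905 ± 311 (adjusted p = 1.15e-05). In DKO, where no locus cytokine was called for dose, Bhlhe40 rose from 40.7 ± 9.44 to 379.6 ± 45.4 (adjusted p = 5.93e-09). Its dose response differed between genotypes by 1.42 on the log2 scale (adjusted p = 0.0147), a call lost under 4 of 22 alternatives. Runx3, a repressor of Il4, was lower in DKO at 2.2 ng/ml (-1.11 ± 0.13, adjusted p = 4.89e-06) and 10 ng/ml (-1.01 ± 0.13, adjusted p = 5.28e-06). At day 2 it was called lower too (-0.54, adjusted p = 0.0261), a call lost under 6 of 16 alternatives (adjusted p from 0.0689 to 0.187). With dose Runx3 rose in WT (0.93, adjusted p = 1.62e-05) and in DKO (1.04, adjusted p = 9.27e-06). Nfatc1, a calcium-driven activator, was higher in DKO at 10 ng/ml (1.23 ± 0.12, adjusted p = 7.9e-08).

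Gata3 and Irf4 fall outside the rule that named these genes and were chosen after their values were seen. Levels of Stat6 and Maf were read as well and are not described, so Gata3 and Irf4 do not stand for the listed factors. Gata3, the defining TH2 factor, read 330 ± 47.1, 1288 ± 43.2, 1171 ± 104 and 1479.8 ± 215 in WT at day 0, day 2, 2.2 and 10 ng/ml, and 285 ± 15.2, 748 ± 74.1, 516 ± 30.5 and 810.1 ± 83.8 in DKO. Irf4, the partner of BATF at composite elements, read 32.8 ± 7.90, 1123 ± 25.7, 398 ± 169 and 1304 ± 101 in WT and 31.9 ± 5.32, 707 ± 84.8, 350.2 ± 68.7 and 896 ± 68.4 in DKO. In the third WT array at 2.2 ng/ml Irf4 read 588, against 338 and 267 in the others, so that array was high for Irf4 as well as for Il4 and Il13. In the 3 cultured states the DKO means of both factors were under the WT means and above the DKO day 0 means. For Irf4 at 2.2 ng/ml the order against WT rested on WT array 3. The remaining WT arrays, at 338 and 267, lay under the DKO mean of 350.2, and the DKO arrays read 281 to 418. No direction between genotypes is therefore read for Irf4 at that dose.

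Of the receptors and kinases through which IL-4, IL-5 and IL-13 signal, 9 of 11 were measured; 1 was higher and 2 lower in DKO at 10 ng/ml, 0 and 1 at day 2, and 0 and 1 at 2.2 ng/ml, beside 12.8%, 2.71% and 3.71% of all genes. With 9 genes, 1 call says little against these shares. Il4ra, the receptor chain shared by IL-4 and IL-13, was lower in DKO at 10 ng/ml (578 ± 62.0 against 1396 ± 167; -1.27 ± 0.15, adjusted p = 5.84e-07). In DKO it fell with dose (-0.86 ± 0.15, adjusted p = 0.000259). Jak2 was lower in DKO at day 2 (-0.68 ± 0.11, adjusted p = 0.000637) and 2.2 ng/ml (-0.88 ± 0.11, adjusted p = 1.07e-05). At 10 ng/ml Jak2 (-0.38 ± 0.11, adjusted p = 0.0228) and Jak1 (0.39 ± 0.12, adjusted p = 0.0255) were called too, but Jak2 was not called without WT array 1 or 3 or DKO array 1 or 2 (adjusted p from 0.0663 to 0.106), nor Jak1 without WT array 3 or DKO array 1 or 3 (adjusted p from 0.0754 to 0.119). With only these groups in the fit neither was called (0.0770 for Jak2 and 0.0623 for Jak1), and Jak1 was not called with cyclic loess (0.0521). The eosinophil receptor chain Il5ra read 5.41 to 6.74 on average, under the guide, in all groups.

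Of 18 other helper T cell cytokines 16 were measured. In DKO 0 were higher and 3 lower at day 2, 0 and 6 at 2.2 ng/ml, and 1 and 4 at 10 ng/ml, where 2.71%, 3.71% and 12.8% of all genes were called. With dose 4 rose in WT and 3 in DKO, with 0 falling, beside 15.2% and 8.15% of all genes. Il24 came nearest to Il13: in WT it read 12.7 ± 2.61, 141 ± 46.6, 55.7 ± 50.04 and 1249 ± 264 at day 0, day 2, 2.2 and 10 ng/ml, and in DKO 10.9 to 13.5 on average. Its array 3 at 2.2 ng/ml was high too (113 against 30.4 and 23.4). Il24 rose 28.5-fold with dose in WT (adjusted p = 4.55e-10), and 46.2-fold without that array. Its dose response differed between genotypes by -4.54 ± 0.50 (adjusted p = 1.49e-06), and by -5.24 without that array. Il21, the follicular helper cytokine, resembled Il5 in rising between the WT doses (25.5 ± 3.91 to 373 ± 33.1, adjusted p = 8.48e-13) and not at day 2 (6.81 ± 1.30). Unlike Il5, its WT mean at 2.2 ng/ml was above that of day 0 (6.44 ± 0.623). It was also called lower in DKO at 2.2 ng/ml (-1.63 on the log2 scale, adjusted p = 4.48e-06). Il10 was not called for dose in WT, where all 3 locus cytokines were: it was at 428 ± 146 in WT at 2.2 ng/ml and at 589.9 ± 267 at 10 ng/ml (adjusted p = 0.326), and read 8.33 to 8.74 on average in DKO. Lif, a cytokine of the IL-6 family, was lower in DKO in all 3 cultured states (-2.19 ± 0.25, -4.31 ± 0.25 and -3.36 ± 0.25, adjusted p at most 6.19e-06), yet still rose in DKO to 372 ± 66.3 at day 2 from 18.4 ± 0.969.

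Most measured partners of Rad50 in the repair of broken DNA were higher at day 2, as Rad50 was, and the 3 called between genotypes moved against it. Of 8 measured of 10 listed, 6 were higher and 1 lower in WT at day 2 than at day 0, where 40.2% of all genes were called. In DKO 6 were higher and 2 lower, beside 28.6%. Atm, the kinase that the complex activates, was among the lower ones, at 158 ± 20.7 in WT and 176 ± 11.6 in DKO at day 0 and at 82.6 ± 7.67 and 90.4 ± 8.16 at day 2. In DKO against WT 0 were called at day 2 and at 2.2 ng/ml, and at 10 ng/ml, where Rad50 was lower and 12.8% of all genes were called, 3 were higher and 0 lower. Those were the end-joining factor Xrcc5 (250 ± 26.3 against 107 ± 21.5; 1.23 ± 0.16, adjusted p = 4.32e-06), Nbn (0.57 ± 0.14, adjusted p = 0.0053, but 0.0985 with the mean of its probe sets) and Xrcc6 (0.53 ± 0.17, adjusted p = 0.0462, a call lost when any of the 6 arrays was left out, with adjusted p from 0.0626 to 0.135, with the replicate number as a block, 0.0596, and with cyclic loess, 0.0523). Mre11a, the nuclease of the same complex, read 172 ± 7.10 in WT and 171 ± 20.0 in DKO at 10 ng/ml (adjusted p = 0.985). With dose in WT 0 partners rose and 2 fell, Xrcc5 (-0.65 ± 0.16, adjusted p = 0.00584) and Nbn (-0.52 ± 0.14, adjusted p = 0.0103), beside 15.2% of all genes. Each call was lost without 1 of the arrays: Xrcc5 without WT 10 ng/ml array 2 (adjusted p = 0.0547), and Nbn without WT 2.2 ng/ml array 1 (0.0703) or array 3 (0.0561) or WT 10 ng/ml array 2 (0.0529). Both were lost with only these groups in the fit (0.0790 for Xrcc5 and 0.0625 for Nbn), and Nbn with the mean of its probe sets (0.0873).

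Basophils and mast cells also make IL-4 and IL-13, so their markers were read beside the cytokines. Of 8 markers (Mcpt8, Prss34, Fcer1a, Cpa3, Ms4a2, Kit, Gata2 and Cd200r3) none was above the guide in 6 groups, and Prss34 alone just passed it in DKO at day 0 (30.3) and at 2.2 ng/ml (30.7). Their summed intensity was 88.8 to 102 on the arrays of WT at 10 ng/ml, where Il4 and Il13 were highest, and 95.7 to 105 at 2.2 ng/ml. The 4 markers of NKT and NK cells were under the guide in every group, and of the 4 eosinophil markers only Siglecf reached it (27.9 to 35.9 on average). Of 3 measured markers of type 2 innate lymphoid cells, Rora read 26.2 to 48.4 on average, Il17rb 22.8 to 38.3 and Klrg1 5.07 to 6.15. Rora was above the guide except at day 2 in both genotypes, and Il17rb except in WT at day 2 and at 10 ng/ml. In WT at 10 ng/ml Rora read 48.4 and Il17rb 22.8, the highest and the lowest mean of each. The B cell marker Cd79b and the antigen-presentation gene Cd74 were highest in DKO at 10 ng/ml (88.8 and 185), while Ms4a1 and Cd79a stayed under the guide in every group. Of the myeloid and dendritic markers listed with Cd74, Cd68 was above the guide in every group (56.1 to 81.6 on average). Lyz2, Csf1r, Itgam, Itgax, Cd14 and H2-Aa were under it in every group. Of the CD8 T cell markers, Cd8b1 was above the guide in every group (35.9 to 65.4 on average) and Cd8a was under it. The part of any of these markers in the differences between genotypes was not tested.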

How the data were processed

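RNA of 24 samples was measured on mouse arrays with probe sets along whole transcripts, after labelling with the Ambion WT Expression kit per the labels. The deposited values are intensities that the authors made with RMA, per the submitters' processing notes. RMA corrects background, equalizes the arrays by quantiles and summarises probes; its software and version, and the build, are not given in the sources. Quantile normalization removes changes shared by most genes. Names came from GEO's platform annotation: 21789 probe sets had 1 symbol, 1621 several and 12146 none listed. The probe set with the highest mean stood for each of the 999 genes with several, and 19938 genes were tested. No column of the value table was left out.

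Log2 intensities were fitted with limma 3.58.1 in R 4.3.3 as 1 mean for each of the 8 groups (16 residual and 7.49 prior degrees of freedom). The 18 contrasts were each adjusted by Benjamini-Hochberg over all genes, and an adjusted p under 0.05 was called. Folds are ratios of geometric means with 95% confidence intervals. Contrasts share arrays (day 0, day 2 and each day 4 group enter several), so they are not independent of each other. The fit was tested on simulated data. For arrays, their number limits the precision.

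The members and the gene lists were chosen with earlier results of these data known. Named genes are the 4 members, all 16 flanking genes, at most 6 of each list by the smallest p in the genotype contrasts at day 2 and 10 ng/ml, and the 5 genes most like each cytokine, without members and predicted models. Alternatives were a filter on dim genes, other uses of several probe sets, cyclic loess, quantile normalization, an offset of 16 before log2, only the compared groups, array weights, a robust fit with a trend in the variance, the replicate number as a block, and leaving out each array.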

Additional observations from a re-analysis of the deposited data

Results flagged for a closer look

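For 6 results the response of a locus gene differed between genotypes by the test of the difference itself (DKO minus WT, log2, limma). For day 2 against day 0 these were Il4, at -3.08 ± 0.50 (SE, adjusted p = 0.00191), and Il13, at -2.25 ± 0.49 (adjusted p = 0.0201). For 10 against 2.2 ng/ml they were Il13, at -4.52 ± 0.49 (adjusted p = 9.74e-07), Il4, at -2.98 ± 0.50 (adjusted p = 0.000307), Il5, at -2.44 ± 0.34 (adjusted p = 2.78e-05), and Rad50, at -1.11 ± 0.20 (adjusted p = 0.000541).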

How the results depend on the processing

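Of the 32 called values of the 4 genes, none changed direction under 548 alternative values, 539 kept their call and 9 lost it, as given in the report. Of the 40 uncalled values, 6 were called and 25 changed sign in 652 alternatives. Besides those in the report, Il4 in WT at 10 ng/ml against day 2 was called with only the compared groups, and Rad50 there with cyclic loess and with quantile normalization. Sign changes outside left-out arrays were Il5 in WT at day 2 against day 0 (0.15 with cyclic loess, 0.16 with quantile normalization), and, in DKO at 2.2 ng/ml against day 0, Il4 (0.043 and 0.077) and Il13 (0.013 with quantile normalization); the cause was not tested. With cyclic loess 0 members were called in WT at 2.2 ng/ml and in DKO at 10 ng/ml against day 0, and with only the compared groups 0 in WT at 2.2 ng/ml against day 0. The 13 genes called between naive genotypes became 4 with cyclic loess, 2 with only the compared groups and 6 with array weights, and the 739 at 2.2 ng/ml became 462 with only the compared groups.

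With each array left out in turn, the number of genes called ranged from 583 to 984 for DKO at 10 ng/ml against day 2 (1033 with all arrays), 564 to 1301 for DKO at 2.2 ng/ml against day 2 (1230), 1058 to 1453 for the DKO dose step (1625), 1223 to 2645 for WT at 2.2 ng/ml against day 2 (2233), 98 to 257 for the day 2 interaction (209), and, for DKO against WT, 4 to 14 at day 0 (13), 298 to 590 at day 2 (541) and 489 to 819 at 2.2 ng/ml (739). Members called ranged from 0 to 1 in DKO at 10 and at 2.2 ng/ml against day 0 and for DKO against WT at 2.2 ng/ml, from 1 to 2 in WT at 2.2 ng/ml against day 0, and from 1 to 3 for the day 2 interaction. Uncalled log2 differences that changed sign ranged as follows. Il13 ranged from -0.18 to 0.31 in DKO at 10 ng/ml against day 2, -0.10 to 0.026 in DKO at 2.2 ng/ml against day 0, -0.011 to 0.48 in DKO at day 2 against day 0, -0.17 to 0.016 for DKO against WT at day 0, and -0.093 to 0.92 in WT at 2.2 ng/ml against day 0. Il4 ranged from -0.15 to 0.050 in DKO and -0.070 to 1.16 in WT at 2.2 ng/ml against day 0. Il5 ranged from -0.24 to 0.0089 in DKO at 2.2 ng/ml against day 0, -0.027 to 0.18 there against day 2, -0.29 to 0.028 for the day 2 interaction, -0.10 to 0.21 for DKO against WT at day 0, and -0.21 to 0.11 in WT at day 2 against day 0. Rad50 ranged from -0.13 to 0.0070 for the DKO dose step.

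Over all genes, most arrays with the same replicate number did not deviate together (84 pairs, correlation of deviations from -0.15 to 0.26, median 0.001, 4 pairs over 0.1). The pairs were pooled over both genotypes and all states, so this check cannot exclude that some numbers pair samples, for example within WT. Il13 was highest on array 3 in each WT state (54.7, 336, 168 and 3052), which did not hold for Il4, Il5 or Rad50. With the replicate block, 7971 genes in place of 8017 were called in WT at day 2 against day 0, and no call of the 4 genes changed. Among the other genes named in the report, the block ended the calls of Xrcc6 in DKO against WT at 10 ng/ml and of Kif3a for the dose interaction, as given there. The level of Il5 outside WT at 10 ng/ml, and of Il4 in all DKO groups, lay under the guide, so folds against them may be understated. In WT at 10 ng/ml, Il5 arrays 1 and 2 were at or just under the guide as well, and only array 3 was clear of it.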
